A study of Mus musculus with 2 samples.

Results

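The genes described here belong to the signalling pathways of transforming growth factor beta (TGF-beta), activin and bone morphogenetic protein (BMP). They are a list of 49 genes: ligands, receptors, SMAD proteins, antagonists and the Id target genes. The list was drawn up with earlier results of these data known. Single-gene probe sets were present for 48 of the 49, out of 18193 genes measured in all, and Gdf15 was not analysed here. Each gene was read from its brightest probe set (by the mean of log2(signal + 16) on the 2 arrays), and 42 of the 48 had a mean at or above that of the median probe set, a signal of about 36.5. This filter left 11960 genes of the whole table.

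Total RNA was compared between 2 states of PGK12.1, a female mouse embryonic stem cell line from blastocysts of a 129 mother and a (129 X PGK)F1 father, at passages 14 to 18. The undifferentiated cells (day 0) had been kept with leukemia inhibitory factor on fibroblast feeders, and the day 15 cells had differentiated as embryoid bodies for 15 days, in both cases after feeders were removed by letting them attach to gelatin. The study set out to follow X-linked expression, and none of the 48 genes is X-linked. Each state was read on 1 Affymetrix array, so there is no replicate error, no test and no p-value, and both states come from 1 cell line.

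Ligands of this family are secreted dimers that bring type I and type II receptor kinases together. The type I receptor then phosphorylates receptor SMADs, which join SMAD4 and enter the nucleus: TGF-beta and activin act through SMAD2 and SMAD3, and BMPs through SMAD1 and SMAD5. Secreted antagonists trap the ligands, and inhibitory SMADs, ubiquitin ligases and corepressors damp the signal inside the cell. In mouse embryonic stem cells BMP signalling through Id genes helps to hold self-renewal with leukemia inhibitory factor, and in the embryo the same pathways direct mesoderm, heart, smooth muscle and connective tissue formation.

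More of these genes were higher than lower at day 15, among them the TGF-beta ligand genes, the type II receptor gene Tgfbr2 and the follistatin-like gene Fstl1, while the Id genes were not. At least 2-fold higher at day 15, meaning a difference of 1 or more in log2(signal + 16), were 17 of the 42 genes above the filter, beside 16.5% of all genes above it. At least 2-fold lower were 2 of 42, Id1 and Acvr2b, beside 8.41% of all genes. The median log2 difference (day 15 minus undifferentiated) was 0.78 over the 42 genes and 0.68 over all 48, against 0.00052 over all genes above the filter. Above 0 were 34 of the 42. How the arrays were scaled moved both the background and the list. Higher genes made up 66.3% of all genes past 2-fold as deposited, 54.6% after quantile normalization and 37.7% after scaling on the hybridization controls. These 2 scalings moved the median of all genes to -0.13 and -0.36. They moved the median of the listed genes to 0.74 and 0.39, with 16 higher and 2 lower, and 16 higher and 3 lower. Of all genes 13.8% were then higher and 11.4% lower with quantile normalization, and 11.3% and 18.8% with scaling on the hybridization controls. With scaling on the hybridization controls 28 of the 42 were above 0.

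**Figure D1:**
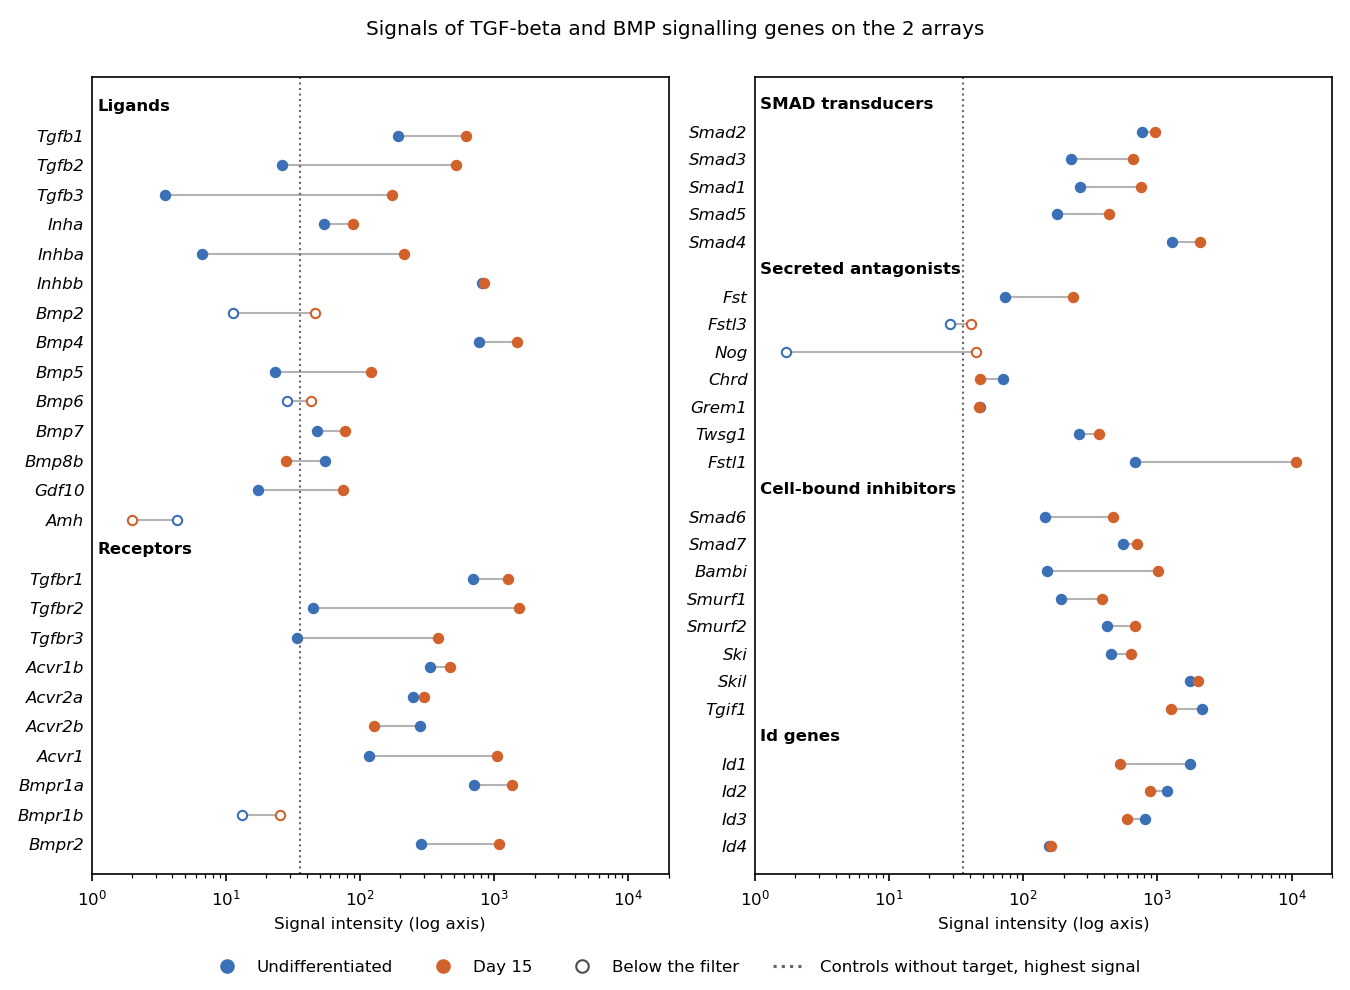
Signal intensity (log axis) of the 48 measured genes on the undifferentiated and the day 15 array, grouped by role, with open points for the 6 genes below the filter and a dotted line at 35.6, the highest signal of bacterial controls without target. Of the genes above the filter Tgfbr2, Tgfb2, Tgfb3, Inhba and Fstl1 span the widest gaps, of the open points Nog does (1.7 and 44.5), and among the Id genes Id1 has the widest gap, with the day 15 point on the left.

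Folds given below are ratios of signals. The highest signal among 15 bacterial control probe sets whose target RNA was seen on neither array was 35.6. If the dimmer signal of a gene was below it, the brighter one was divided by 35.6 instead and the result is written as a lower bound, with the words at least. The 2-fold counts use log2(signal + 16), which damps dim genes. Each such count on the deposited values stands beside 16.5% higher and 8.41% lower among all genes above the filter. Of the 42 genes above the filter 6 were dimmer than 35.6 in undifferentiated cells, and all 6 were among the 17 higher genes. A gene this dim in undifferentiated cells could pass the filter only with a brighter day 15 signal. The direction of these 6 was therefore set by the filter and is no result by itself. The same holds in reverse for Bmp8b, the 1 gene above the filter that was dimmer than 35.6 at day 15. With total RNA from whole cultures, a change in the number of cells that make a transcript and a change in transcript per cell cannot be told apart.

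All 3 TGF-beta ligand genes were higher at day 15. Tgfb1, which encodes the form best known from immune cells and connective tissue, measured 192.5 in undifferentiated cells and 611.3 at day 15, a 3.18-fold difference. Its other probe set was dim at 20 and 28.4, and with the mean over both the log2 difference fell short of 2-fold, at 0.95 against 1.59. Tgfb2, the form needed for heart valve and craniofacial development, measured 26.2 and 517.5, at least 14.5-fold higher. All 4 of its probe sets passed the filter, and their log2 differences ran from 3.03 to 4.13. Tgfb3, which takes part in palate fusion, measured 3.5 and 171.9, at least 4.83-fold higher. Tgfb2 and Tgfb3 were thus not above the control signals before differentiation and clearly above them afterwards, whereas Tgfb1 was above them on both arrays.

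The activin and inhibin subunit genes did not move together. Inhba, the beta A subunit that forms activin A, measured 6.6 and 213.1, at least 5.99-fold higher, although its other probe set stayed dim at 4.9 and 6.7. Inhbb, the beta B subunit, was bright on both arrays at 809.1 and 833.8, a ratio of 1.03, and its other probe set measured 176.2 and 123.6. The log2 difference of Inhbb (0.04) turned to -0.34 with scaling on the hybridization controls and to -0.21 with the mean over probe sets. Inha, the alpha subunit that turns beta subunits into inhibins, measured 53.8 and 88.1, or 1.64-fold higher. The activin subunits therefore differed in state: the beta B transcript was already present in stem cells, and the beta A transcript was above controls at day 15 alone.

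BMP ligand genes moved less. Bmp4, the ligand that in culture supports stem cell self-renewal and later patterns mesoderm, had signals of 768.0 and 1470.9, a 1.92-fold difference that came short of the call at a log2 difference of 0.92. Bmp5, active in skeletal and limb development, was at least 3.41-fold higher (23.3 and 121.3), with its dimmer probe sets going from 3.8 to 50.6 and from 1.3 to 24.7. Bmp7, needed for kidney and eye formation, measured 47.9 and 77.3, and Bmp8b, which acts in germ cell formation, 54.8 and 28.0. Of the 4 BMP ligand genes above the filter Bmp5 alone reached 2-fold, and Bmp8b alone was lower. The filter set both directions, since Bmp5 was dimmer than 35.6 in undifferentiated cells and Bmp8b at day 15. Bmp2, a ligand for heart and bone formation, went from 11.4 to 45.9 (at least 1.29-fold) and Bmp6 from 28.8 to 43.3 (at least 1.22-fold), and both lay below the filter. Bmp6 had a mean log2 signal of 5.69, just under the filter at 5.72, and the nearest listed gene inside it was Gdf10 at 5.78.

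Gdf10, also called BMP3B, measured 17.5 and 74.3 and was at least 2.09-fold higher. Its log2 difference of 1.43 became 0.76 with a pseudocount of 64. Amh, the hormone that causes regression of the Müllerian duct, lay below the control bound on both arrays (4.3 and 2.0), so no fold is given. Over all 11 ligand genes above the filter the median log2 difference was 1.43, with 6 higher and 0 lower, and the pseudocount of 64 brought this median to 0.88. Of the 6 higher ligand genes, Tgfb2, Tgfb3, Inhba, Bmp5 and Gdf10 were dimmer than 35.6 in undifferentiated cells. Their direction was set by the filter, so this count is no result by itself. Leaving the filter out gave a ligand median of 1.05 over 14 genes. A stricter cut, at the 75th percentile, kept 3 ligand genes, whose median was 0.92. Ligands of the TGF-beta and activin branch had a median of 2.43 over 6 genes, and BMP ligands one of 0.73 over 4 genes. The first of these medians includes Tgfb2, Tgfb3 and Inhba and the second Bmp5 and Bmp8b, so both rest in part on genes whose direction the filter set.

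**Figure D2:**
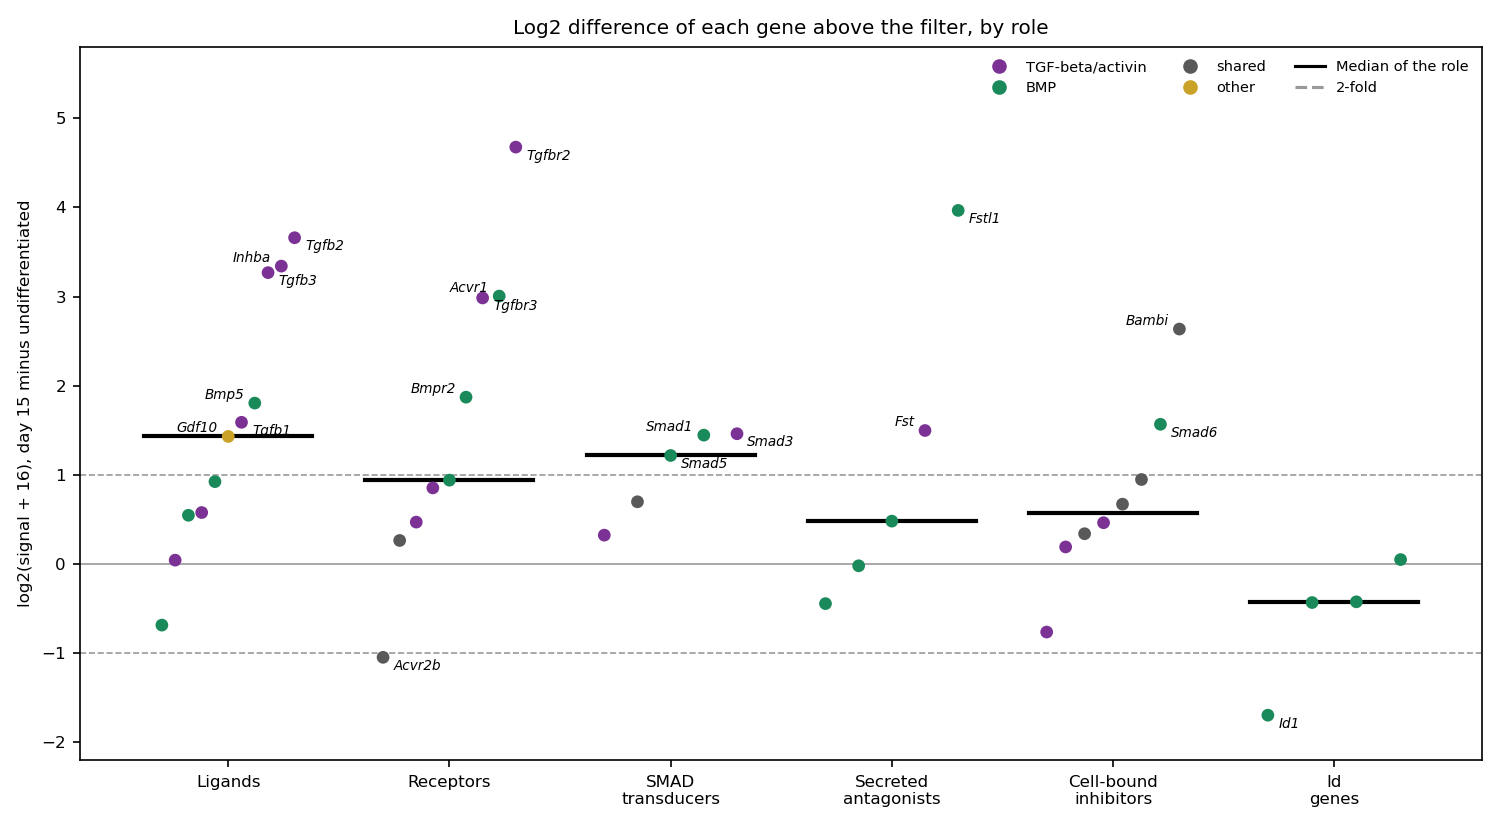
Difference in log2(signal + 16), day 15 minus undifferentiated, of the 42 genes above the filter, 1 point a gene, by role and coloured by branch, with bars at the median of each role and dashed lines at 2-fold. Of the 6 roles the Id genes alone have a median below 0 (-0.43), and genes past 2-fold are named.

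Among the receptors, the TGF-beta type II receptor gene had the largest log2 difference by brightest probe set. Tgfbr2, the kinase that binds TGF-beta directly and recruits the type I receptor, measured 44.5 in undifferentiated cells and 1531.5 at day 15, a 34.4-fold difference. Its log2 difference of 4.68 stood at percentile 99.4 of all genes above the filter. The other probe sets of Tgfbr2 stayed below the control bound at 4.3 and 9.9, and at 9.1 and 1.5, so the difference rests on 1 probe set, and the mean over its probe sets gave 1.50. Its partner, the type I receptor gene Tgfbr1, was already bright at 697.0 and reached 1271.8, 1.82-fold higher, with a log2 difference of 0.85. The other Tgfbr1 probe sets lay below the control bound on both arrays (21.5 and 28.3, and 23.7 and 15.5), and the mean over probe sets gave 0.25. Tgfbr3, the coreceptor betaglycan that presents TGF-beta 2 to the type II receptor, measured 34.0 and 379.7, at least 10.7-fold higher, its other probe set measured 23.9 and 50, and the mean over both lowered the log2 difference from 2.98 to 1.86. In undifferentiated cells, then, the brightest type I receptor probe set read well above the controls while those of Tgfbr2 and Tgfbr3 lay close to or below their highest signal.

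Activin receptor genes lay within 2-fold or were lower. Acvr1b (the activin type I receptor ALK4) measured 334.2 and 468.8, and Acvr2a, an activin and BMP type II receptor, 246.2 and 298.7. Acvr2b, the other activin type II receptor, was 2.20-fold lower at day 15, at 278.4 and 126.4. A dimmer Acvr2b probe set that also passed the filter had the same log2 difference of -1.05, from 78.4 to 29.7, while the remaining one was dim on both arrays. The call for Acvr2b was close to the threshold: its log2 difference was -0.85 with a pseudocount of 64 and -0.68 with the mean over probe sets, and -1.32 and -1.39 with quantile normalization and scaling on the hybridization controls.

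Of the 4 BMP receptor genes Acvr1 and Bmpr2 were higher. Acvr1, the BMP type I receptor ALK2, went from 116.6 to 1049.0, a 9.0-fold difference. Its other probe sets disagreed in size and direction, at 83.8 and 317.7 and at 49.4 and 36.6. Bmpr2, the BMP type II receptor, measured 284.4 and 1083.0, or 3.81-fold higher, and its next probe set had a log2 difference of 1.48. Bmpr1a, the type I receptor ALK3 needed for mesoderm formation, measured 703.8 and 1365.1, 1.94-fold, but the 4 dimmer ones that passed the filter differed by 0.36 or less on the log2 scale. Bmpr1b (ALK6) lay below the control bound on both arrays at 13.1 and 25.4. Of 9 receptor genes above the filter 4 were higher and 1 was lower, with a median of 0.94, which the mean over probe sets brought to 0.33. The 4 include Tgfbr3, which was dimmer than 35.6 in undifferentiated cells, so its direction was set by the filter.

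Promoter sequence was looked at for Tgfbr2, Acvr1 and Bmpr2, from the 4 receptor genes that were higher. It was also looked at for the BMP-responsive genes Smad6, which was higher, and Id2 and Id3, which lay within 2-fold on the lower side. The promoters of Tgfbr3, the remaining higher receptor gene, and of Id1, the lower Id gene, are not shown. Shown are the 250 bases before each start site from RefSeq (GRCm38.p6), written 5′ to 3′ along the gene. Capitals mark the SMAD-box letters CAGAC on either strand (CAGAC or its complement GTCTG) and the palindrome GGCGCC, a GC-rich motif bound by BMP SMADs.
Tgfbr2, chr9:116175364-116175613, minus strand: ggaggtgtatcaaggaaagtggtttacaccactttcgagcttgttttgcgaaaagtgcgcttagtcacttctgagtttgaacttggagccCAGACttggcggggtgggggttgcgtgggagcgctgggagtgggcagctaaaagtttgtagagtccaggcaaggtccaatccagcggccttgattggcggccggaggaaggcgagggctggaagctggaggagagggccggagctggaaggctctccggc
Acvr1, chr2:58566829-58567078, minus strand: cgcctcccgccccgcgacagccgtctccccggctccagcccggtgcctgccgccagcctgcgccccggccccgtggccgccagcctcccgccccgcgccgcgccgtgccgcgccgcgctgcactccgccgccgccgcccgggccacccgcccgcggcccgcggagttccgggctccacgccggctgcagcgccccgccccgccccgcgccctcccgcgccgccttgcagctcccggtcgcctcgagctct
Bmpr2, chr1:59764029-59764278, plus strand: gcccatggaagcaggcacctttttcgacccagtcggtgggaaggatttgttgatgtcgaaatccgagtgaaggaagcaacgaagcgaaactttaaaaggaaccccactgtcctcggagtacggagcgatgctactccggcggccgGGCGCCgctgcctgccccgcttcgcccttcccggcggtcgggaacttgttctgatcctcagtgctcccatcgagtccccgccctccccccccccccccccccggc
Smad6, chr9:64022060-64022309, minus strand: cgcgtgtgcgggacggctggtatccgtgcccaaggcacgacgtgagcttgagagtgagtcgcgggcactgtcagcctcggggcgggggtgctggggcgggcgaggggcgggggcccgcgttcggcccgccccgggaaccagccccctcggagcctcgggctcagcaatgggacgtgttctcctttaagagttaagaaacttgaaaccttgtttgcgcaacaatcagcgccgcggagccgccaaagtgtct
Id2, chr12:25096093-25096342, minus strand: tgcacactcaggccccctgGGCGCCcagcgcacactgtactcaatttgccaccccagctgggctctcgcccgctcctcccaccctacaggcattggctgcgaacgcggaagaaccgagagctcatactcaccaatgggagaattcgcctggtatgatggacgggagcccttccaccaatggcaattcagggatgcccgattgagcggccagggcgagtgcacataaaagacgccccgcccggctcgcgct
Id3, chr4:136143572-136143821, plus strand: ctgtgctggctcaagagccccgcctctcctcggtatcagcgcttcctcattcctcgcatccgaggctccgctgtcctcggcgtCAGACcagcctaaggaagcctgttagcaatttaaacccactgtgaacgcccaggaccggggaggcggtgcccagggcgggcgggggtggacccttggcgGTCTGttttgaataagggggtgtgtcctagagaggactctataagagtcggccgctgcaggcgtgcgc
Tgfbr2 held 1 match to CAGAC and none to GGCGCC, Bmpr2 and Id2 held 1 match each to GGCGCC, and Id3 held 2 to CAGAC. Acvr1 and Smad6 had no match to either motif. No window shown held both motifs, so no matches overlapped. Among all 32851 promoter windows of this length of RefSeq, 42.2% held CAGAC and 9.59% held GGCGCC. Of the 49 listed genes 36 had windows there, 46 windows in all, of which 52.2% held CAGAC and 21.7% held GGCGCC. CpG dinucleotides numbered 46 in the Acvr1 window and 12 in that of Tgfbr2, against a median of 6 over all windows. A match says only that these letters are present, and its absence says nothing about binding.

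Of the receptor SMAD genes 3 were higher, among them members of both branches. Smad1, a BMP SMAD, measured 267.1 and 754.8 (2.83-fold), and Smad5, its close relative, 177.0 and 432.6 (2.44-fold). Smad3, a TGF-beta and activin SMAD, measured 226.7 and 652.1, a 2.88-fold difference. Smad2, the other SMAD of that branch, differed little at 765.3 and 961.4 (1.26-fold), and its other probe set gave a like log2 difference (0.28 against 0.32). The shared partner gene Smad4 measured 1283.7 and 2091.6, or 1.63-fold higher, with log2 differences of 0.51 and 0.53 in its other probe sets. All 5 transducers had log2 differences above 0 (median 1.22), although Smad2 turned to below 0 with scaling on the hybridization controls.

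The calls for Smad3 and Smad5 rested on the brightest probe set, whereas a second Smad1 probe set (255.4 and 621.2) was past 2-fold too, at a log2 difference of 1.23. Other probe sets of Smad5 gave log2 differences of 0.70 and -0.26 against 1.22, and a dim one of Smad3, just below the filter, gave -0.70 against 1.46. The dimmest probe set of Smad1 measured 79.7 and 98.4. With the mean over probe sets the 3 log2 differences were 0.98, 0.45 and 0.55, all under 2-fold, and the transducer median was 0.55. Smad5 also came short with quantile normalization (0.99) and with scaling on the hybridization controls (0.84).

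**Figure D3:**
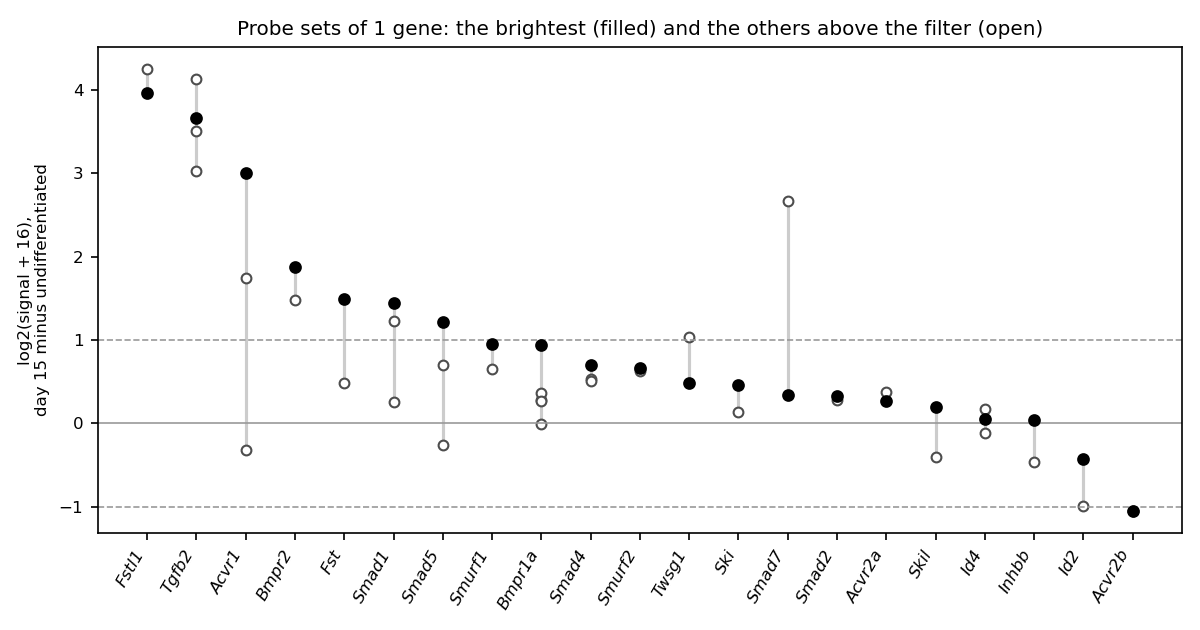
Difference in log2(signal + 16), day 15 minus undifferentiated, of each probe set above the filter for the 21 genes with more than 1, with the brightest probe set filled and the others open. Fstl1, Tgfb2 and Bmpr2, and Acvr2b on the lower side, have all probe sets shown past 2-fold, whereas those of Smad7 and Acvr1 spread over more than 2 log2 units.

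Of the 42 genes above the filter 21 had more than 1 probe set above it, and in 6 of them a probe set went the other way: Acvr1, Bmpr1a, Inhbb, Skil, Smad5 and Id4. The SD of the log2 difference among probe sets of 1 gene was 0.63 for these genes and 0.53 over all genes. It includes differences between transcript ends and isoforms, and no variation between cultures. For comparison, the 18 hybridization controls had log2 ratios with an SD of 0.11. A gene with a log2 difference within about 0.63 of 0 thus lies inside the spread between probe sets of 1 gene.

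Secreted antagonists were led by Fstl1. Fstl1, a follistatin-like glycoprotein of mesenchyme that can bind BMP4, went from 677.3 to 10821.8, a 16-fold difference. Its other probe set went from 305.6 to 6111.5, a log2 difference of 4.25 beside 3.97. Fst, the activin-binding protein follistatin, was 3.22-fold higher at 73.1 and 235.5, while its dimmer probe set measured 49.2 and 75, and the mean over both came just short of 2-fold at 0.99.

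The other listed antagonists lay below the filter or, by brightest probe set, within 2-fold. Chrd, encoding chordin, measured 71.0 and 47.9, and Grem1, encoding gremlin, 47.4 and 46.5. Nog, encoding noggin, lay below the filter at 1.7 and 44.5, at least 1.25-fold higher, and Fstl3, a follistatin relative, at 28.6 and 40.5. Twsg1, which binds chordin and BMPs, measured 258.4 and 366.8 (1.42-fold), and its next probe set 130.8 and 285.1, a log2 difference of 1.04. Over the 5 antagonist genes above the filter the median was 0.48, with 2 higher and 0 lower, but 1.27 over 4 genes when probe sets with a suffix of a, s or x, which can match several transcripts, were left out. Of the 7 listed antagonists, Fstl1 and Fst were thus the ones that reached 2-fold above the filter.

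Among the inhibitors inside the cell or at its membrane, Bambi and Smad6 were higher. Bambi, a pseudoreceptor without a kinase domain that BMP and TGF-beta signals induce, measured 150.2 and 1016.6, a 6.77-fold difference. Smad6, the inhibitory SMAD that BMP signalling induces, measured 146.0 and 463.9, or 3.18-fold higher. Both genes have 1 probe set here. Smad7, the inhibitory SMAD of both branches, measured 554.6 and 705.7 (1.27-fold), but its other probe set, with suffix x and a mean log2 signal of 9.15 beside 9.33, went from 209.7 to 1416.0. The log2 difference of Smad7 is therefore 0.34 by the brightest probe set, 2.67 by the other and 1.50 by their mean, and -0.04 with scaling on the hybridization controls.

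The ubiquitin ligases and corepressors lay within 2-fold. Smurf1, which marks BMP SMADs and receptors for degradation, measured 191.2 and 383.5, a ratio of 2.01 whose log2(signal + 16) difference of 0.95 missed the call. Smurf2 measured 418.6 and 675.7, with log2 differences of 0.63 to 0.67 in all 3 probe sets. Ski and Skil, corepressors that bind SMAD complexes, measured 454.0 and 631.6, and 1754.5 and 2004.6. Tgif1, a homeodomain corepressor of SMAD2 that is mutated in holoprosencephaly, was the exception, lower at 2166.5 and 1269.0 (1.71-fold). Its log2 difference was -0.76, and -1.15 with scaling on the hybridization controls. Of the 8 genes in this role 2 were higher and 0 lower, with a median of 0.57.

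The Id genes, which encode inhibitors of basic helix-loop-helix factors and are direct targets of BMP SMADs, were not higher at day 15. Id1 measured 1742.8 and 526.5, 3.31-fold lower, at percentile 1.29 of all genes above the filter, on its 1 probe set, which has the suffix a. Id2 measured 1182.5 and 876.7 (1.35-fold lower) and Id3 802.4 and 590.2 (1.36-fold lower), and both differences lie inside the spread between probe sets of 1 gene. A dimmer Id2 probe set went from 350.3 to 168.4, a log2 difference of -0.99. When such suffixed probe sets were left out, Id2 rested on a probe set below the filter, at 28.8 and 32.4, and its sign turned (0.11). Id4 was level at 155.1 and 161.0, with a log2 difference of 0.05 that turned to -0.29 with quantile normalization and -0.30 with scaling on the hybridization controls. The 4 Id genes had a median of -0.43, or -0.19 over the 2 that passed the filter without suffixed probe sets, and so the BMP-responsive genes of the list split: Bambi and Smad6 were higher, Id1 was lower, and Id2, Id3 and Id4 lay within 2-fold.

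By branch, 8 of 16 TGF-beta and activin genes above the filter were higher and 0 lower (median 1.16), and 7 of 18 BMP genes were higher and 1 lower (median 0.73). Of all genes above the filter 16.5% were higher and 8.41% lower. The filter set the direction of Tgfb2, Tgfb3, Inhba and Tgfbr3 in the TGF-beta and activin branch. It also set that of Bmp5 and Bmp8b in the BMP branch. The branch counts and medians rest in part on these genes and are no result by themselves. The difference between branches was not tested. The order of the medians turned under 3 alternatives: TGF-beta and activin against BMP gave 0.45 and 0.55 with the mean over probe sets, 0.47 and 1.08 when genes were filtered at the 75th percentile, and 0.85 and 0.92 with the filter on the control bound.

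**Figure D4:**
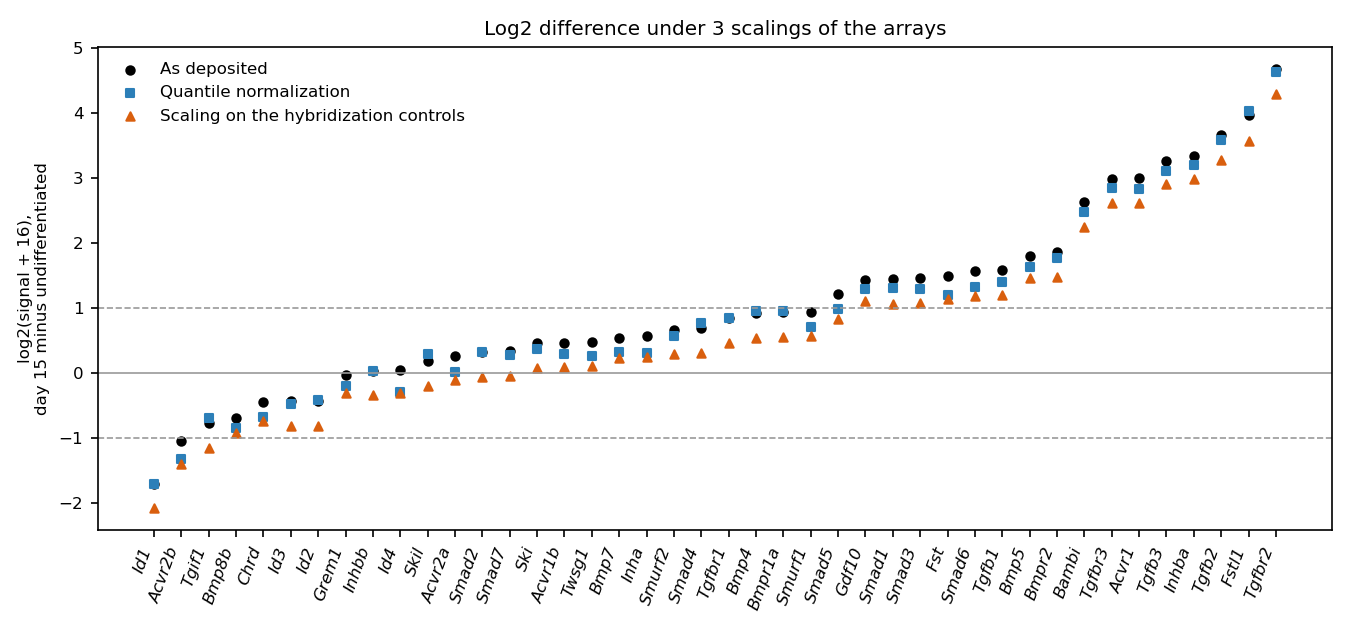
Difference in log2(signal + 16), day 15 minus undifferentiated, of the 42 genes above the filter, ordered by the deposited values, under the deposited scaling, quantile normalization and scaling on 18 hybridization control probe sets. Scaling on the controls lowers every gene, which takes 6 genes near 0 (Acvr2a, Id4, Inhbb, Skil, Smad2, Smad7) below it and leaves 16 of the 17 higher genes past 2-fold.

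The rest of the pathway was taken from lists of 90 other genes, of which 80 were measured and 59 passed the filter. Of these 59, 22 (37.3%) were at least 2-fold higher and 7 (11.9%) lower, beside 16.5% and 8.41% of all genes above the filter. Among the higher genes Bmp1, Ltbp3, Pcsk5, Bmper, Tab1, Snai2 and Ldlrad4 were dimmer than 35.6 in undifferentiated cells. Gdf9 and Hjv among the lower genes were dimmer than 35.6 at day 15. The filter set the direction of these genes. Counts that include them, here, by list and under the alternatives, are no result by themselves. Their median was 0.33. The 2 lists with the most higher genes were those of TGF-beta target genes and of ligand latency and activation. Of 11 TGF-beta target genes 9 were higher and 0 lower (median 2.61), led by the transcription factor gene Snai2 (19.5 and 2923.5), the smooth muscle actin-binding gene Tagln (225.7 and 6397.3), the matrix protein gene Tgfbi (114.9 and 2945.5) and the cell cycle inhibitor gene Cdkn2b (100.6 and 1661.0). These genes answer to other signals too, and several were known from earlier results of these data.

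Genes that store and release TGF-beta were mostly higher. Of 8 latency and activation genes above the filter 6 were higher and 1 lower (median 2.48). The 6 include Ltbp3 and Pcsk5, whose direction the filter set. Thbs1, encoding thrombospondin, which can activate latent TGF-beta, measured 108.0 and 1693.6 (15.7-fold). Ltbp3 and Ltbp1, whose products tether latent TGF-beta to the matrix, measured 28.0 and 519.1 (at least 14.6-fold), and 63.6 and 727.4 (11.4-fold). Itgav, the alpha V integrin that frees TGF-beta from its latent complex, was 6.42-fold higher (681.5 and 4373.0), although 1 dimmer probe set above the filter went the other way. Ltbp4 was the exception at 1617.4 and 636.3, 2.54-fold lower, and is named after its values were seen, as the 1 lower gene of this list.

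Other antagonists, ligands and cofactors gave mixed counts, to be read beside 16.5% higher and 8.41% lower among all genes. Among the genes past 2-fold, the filter set the direction of Bmper, Bmp1, Tab1, Gdf9 and Hjv. The SMAD cofactors (14.3% higher and 7.14% lower) and the higher share of the other ligands (16.7%) lay near these. All 3 further secreted antagonists above the filter were higher: the proteoglycan decorin gene Dcn (41.3 and 1839.1), the BMP-binding gene Bmper (9.2 and 399.2) and the protease gene Htra1 (822.3 and 2825.2), while 9 of the 12 measured lay below the filter. Of 6 other ligand-list genes Bmp1, a protease that processes procollagen and chordin, was at least 16.2-fold higher (11.8 and 575.0), and the oocyte ligand gene Gdf9 at least 2.60-fold lower (92.4 and 24.1). Of 14 SMAD cofactors 2 were higher, Tab1 (33.9 and 117.2) and Tob1 (828.4 and 1942.2), and 1 lower, Foxh1, the SMAD2 partner in NODAL signalling (417.0 and 117.9, 3.54-fold), with a median of -0.07. Of 6 other receptors and coreceptors 0 were higher and 2 lower, Amhr2 (243.7 and 82.5) and Hjv (62.3 and 20.3). Of 5 further BMP target genes Msx2 alone was higher (77.6 and 182.2). In the NODAL pathway 0 of 6 were higher and 2 lower, the ligand gene Gdf3 (2697.8 and 584.9) and the coreceptor gene Tdgf1 (7190.5 and 3488.7).

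**Figure D5:**
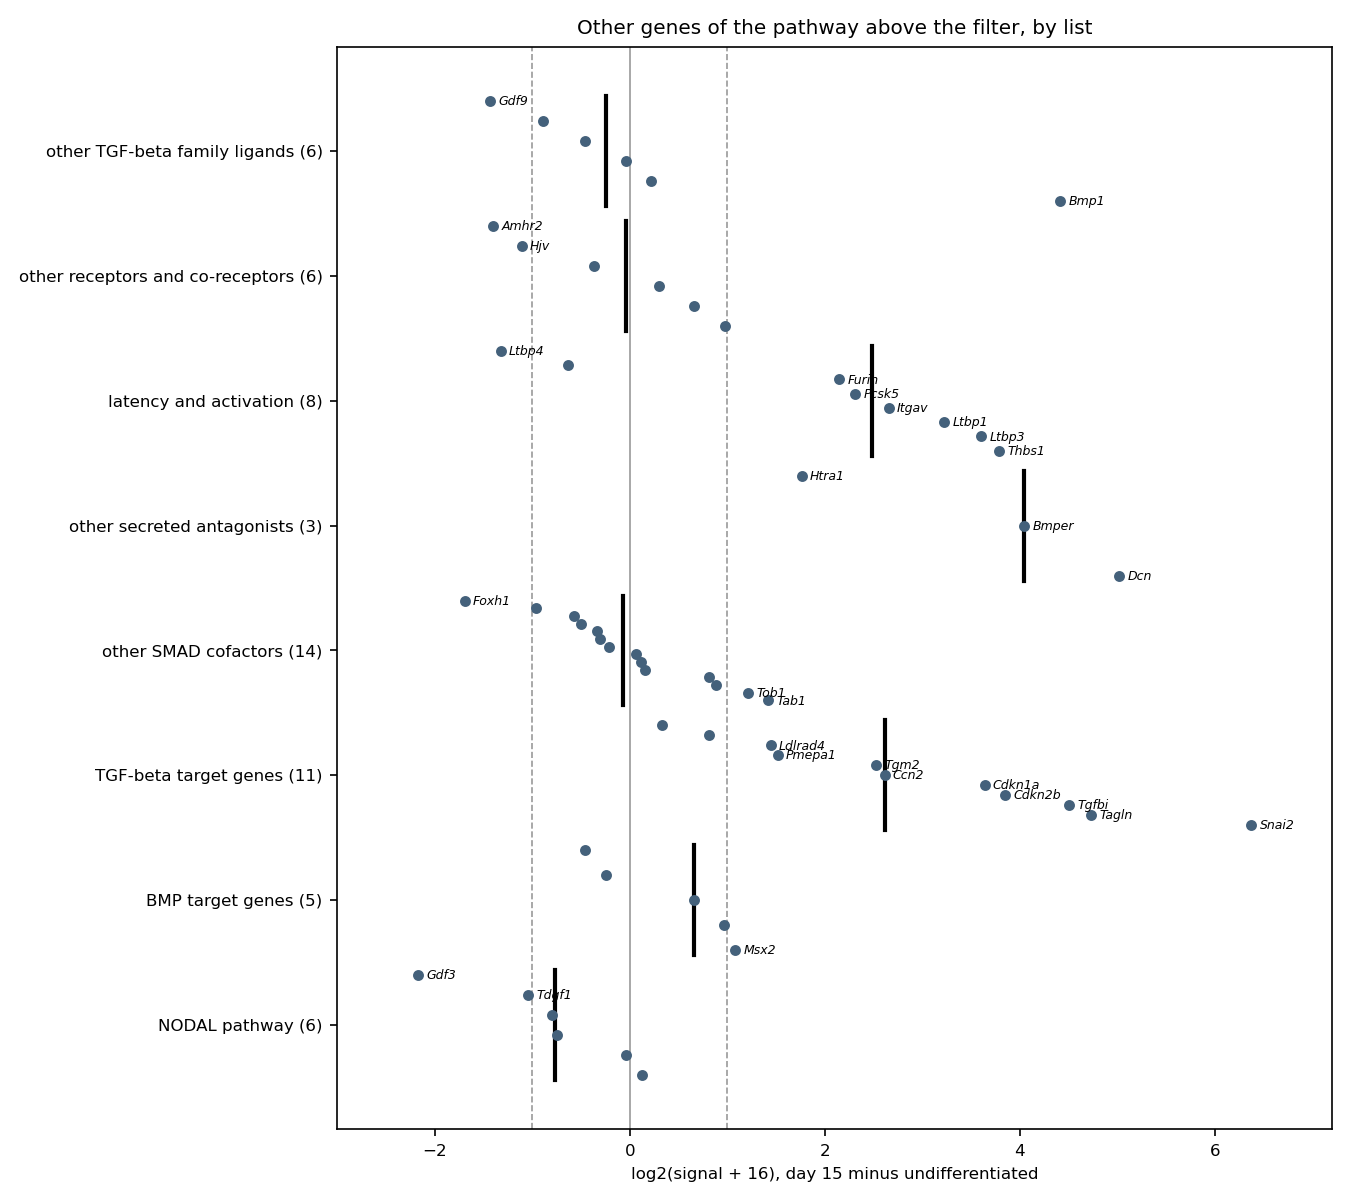
Difference in log2(signal + 16), day 15 minus undifferentiated, of the 59 other pathway genes above the filter by list, with the number of genes in brackets, bars at list medians and dashed lines at 2-fold. The TGF-beta target genes lie wholly above 0 (median 2.61), whereas 5 of the 6 NODAL pathway genes lie below it (median -0.77). The filter set the direction of Snai2 and Ldlrad4 among the target genes.

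Markers of several cell types also differed between the arrays. The lists overlap: Tagln is also counted among the TGF-beta target genes, and Dcn among the further secreted antagonists. Of 10 fibroblast and matrix markers 9 were higher at day 15 by 2-fold or more (median 5.49, from Thy1 at 0.01 to Col1a1 at 7.87), and their summed signal went from 433.1 to 34114.7, with 5 of the 10 below the control bound in undifferentiated cells. Smooth muscle markers were higher for 5 of 6 (median 4.42, Smtn 0.28 to Actg2 5.61, summed signal 1379.7 and 29102.5) and cardiac markers for 4 of 7 (median 2.64, Myh6 0.31 to Tnnt2 5.83, summed signal 329.7 and 4605.9). Visceral endoderm markers were higher for 2 of 5 (median 0.65, Amn -0.95 to Afp 5.70, summed signal 293.4 and 1786.8). Afp, Ttr, Tnnt2, Hand2, Tbx20, Cnn1 and Actg2 were dimmer than 35.6 in undifferentiated cells, as were the 5 fibroblast and matrix markers. The filter set the direction of these genes, so the counts of higher markers in these 4 lists are no result by themselves. Pluripotency markers were lower for 5 of 8 (median -1.24, Klf4 -0.19 to Dppa3 -2.73), and their summed signal went from 35777.3 to 17022.5, so transcripts of undifferentiated cells were still present at day 15. Endothelial markers were lower for 2 of 4 and higher for 0 (median -0.74, Esam -1.51 to Kdr 0.86), with 3 of the 4 below 0. Neural markers (3 of 8 higher and 3 lower, median -0.69, Neurod1 -1.56 to Ncam1 3.21) and cartilage and bone markers (0 of 5 higher and 1 lower, median 0.06, Alpl -1.18 to Sp7 0.56) showed no common direction. The part of these cell types in the values of the TGF-beta and BMP genes was not tested.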

How the data were processed

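The deposited table holds linear signal intensity of 45101 probe sets on each array. Biotinylated cRNA was made by the Affymetrix protocol, per the labels, and how probes were summarised is not given in the sources used here. A mean trimmed by 2% at either end came to 250.0 for both, so the authors had scaled the deposited intensity before deposit. After 64 control probe sets were set aside, 34945 probe sets named 1 gene by the platform annotation, 932 named several and were not used, and 9160 were not listed there. Symbols were updated by gene identifier for 34741 through the RefSeq table (GRCm38.p6). The number of arrays limits the precision, and nothing was averaged.

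Python 3.11.15 and pandas 2.3.3 were used. Genes were taken to log2(signal + 16), represented by their brightest probe set, filtered at the median of all probe sets and called by size at 2-fold. The procedure was tested on simulated data. Every listed gene is accounted for. From other pathway lists up to 4 genes past 2-fold by absolute difference are named, with Ltbp4 added after its values were seen, and from marker lists the extremes with the list median. Genes past 2-fold whose direction the filter set are named or counted as well. The genes, lists and alternatives were chosen with earlier results of these data known. The alternatives were pseudocounts of 1 and 64, no filter, a filter at the 75th percentile, quantile normalization, scaling on 18 hybridization control probe sets (mean log2 ratio 0.39), the mean over all probe sets of a gene, and leaving out suffixes a, s and x. A filter on the control bound of 35.6 was added after seeing the data, and the promoters shown were chosen after their genes' values were seen.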

Additional observations from a re-analysis of the deposited data

Results flagged for a closer look

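Outside the genes, the bacterial Dap and Lys control probe sets, which read RNA added to a sample before labelling, differed wholly between the arrays. The 6 Dap probe sets measured 4157.8 to 15243.2 on the undifferentiated array and 0.4 to 18.1 on the day 15 array. The 6 Lys probe sets measured 0.4 to 15.3 and 5124.0 to 11559.9. These controls therefore give no common scale for the TGF-beta and BMP genes.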

How the results depend on the processing

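Of the 17 genes called higher, 11 stayed past 2-fold under each of the 9 alternatives that measured them, whether or not they passed its filter, and the 6 others were Fst, Gdf10, Smad1, Smad3, Smad5 and Tgfb1. No filter, the filter at the 75th percentile and the filter on the control bound leave the value of each gene unchanged. These settings could not move a call and are no check on it. The cause of the shifts below was not tested, except that a stricter filter or fewer probe sets leave fewer genes. With the filter at the 75th percentile 28 genes remained, 10 higher and 1 lower, beside 13.0% and 9.79% of all genes. The secreted antagonist median was then 2.22 (2 genes), the TGF-beta and activin median 0.47 and the BMP median 1.08. Of 34 other pathway genes left by that filter 14 were higher and 4 lower. With the mean over probe sets 11 of 38 were higher and 1 lower, beside 13.0% and 6.56% of all genes. Medians were then 0.33 for receptors, 0.55 for SMAD transducers and 0.45 and 0.55 for the TGF-beta and activin and the BMP branch. A pseudocount of 64 left 1 lower gene, beside 5.70% of all genes, and a ligand median of 0.88. Leaving out suffixes a, s and x removed Id1 and gave 1 lower gene, a secreted antagonist median of 1.27 and 4 lower among 51 other pathway genes. Of all genes 8.64% were lower there. Scaling on the hybridization controls gave 12 lower among 59 other pathway genes, beside 18.8% of all genes. The median over the listed genes stayed above 0 under all 9, at 0.39 to 0.94. The filter on the control bound kept 46 genes, 19 higher (with Bmp2 and Nog) and 2 lower, where 16.9% and 9.19% of 13075 genes were. It keeps a gene that reaches 35.6 on either array. It thus set the direction of Bmp2 and Nog, as of other genes dimmer than 35.6 in undifferentiated cells, and this count is no result by itself. Signals near or below 35.6 limit what can be said of Amh, Bmpr1b, Bmp2, Bmp6, Nog and Fstl3. No paired analysis was possible because each state has 1 array.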
